A study of Mus musculus with 12 samples.

Results

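Immune checkpoint genes encode ligands and receptors that restrain T cells, and 10 of them, chosen by symbol, were examined in 12 mouse breast tumors among the 750 genes of an nCounter immune panel. The 10 genes were the ligands Cd274 (PD-L1), Pdcd1lg2 (PD-L2) and Cd276 (B7-H3), the tryptophan-degrading enzyme Ido1, and the receptors Pdcd1 (PD-1), Ctla4, Lag3, Havcr2 (TIM-3), Tigit and Btla. All tumors were triple negative breast tumors of the K14-Cre;Brcaf/fTrp53f/f model, in which Cre under the keratin 14 promoter deletes floxed Brca1 (so named in the study's methods) and Trp53 in epithelium, transplanted and grown in mammary fat pads of female FVB/129P2 mice, which are syngeneic hosts. Mice received vehicle (DMSO in saline given intraperitoneally and saline given into the tumor), ADU-S100 (a STING agonist, 50 µg in 1 intratumoral injection of 40 µl), olaparib (a PARP inhibitor, 50 mg/kg intraperitoneally each day for 3 days) or the combination of both drugs, and tumors were taken 3 days after the start. Each group held 3 tumors, and each tumor was labelled with a number. The RNA came from pieces of whole tumor, so tumor cells, stroma and immune cells were measured together, and fewer cells of a type cannot be told apart from less RNA per cell.

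PD-L1 and PD-L2 bind PD-1 on T cells and lower signalling through the T cell receptor, and both are inducible by interferon. CTLA-4 competes with CD28 for the ligands CD80 and CD86, LAG-3 binds MHC class II, TIGIT competes with CD226 for the nectin-like ligand CD155, BTLA binds HVEM, and TIM-3 binds galectin-9 among other ligands. PD-1, CTLA-4, LAG-3, TIGIT and TIM-3 appear on T cells after activation and can persist on exhausted T cells. Indoleamine 2,3-dioxygenase 1 limits T cells by depleting tryptophan, and B7-H3 is a member of the B7 family found on many epithelial and stromal cells.

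The deposited values were normalized counts, and the counts before scaling were recovered from them. Total recovered counts ranged from 106206 to 1519471 per tumor. The scaling factors differed by 17.8-fold, with the highest (10.5) in olaparib tumor 1517 and the lowest (0.589) in olaparib tumor 1521. The combination tumors had factors of 0.810, 0.824 and 0.820. A count in tumor 1517 was therefore worth more than in any other tumor, and 7 of the 10 checkpoint genes had their highest normalized count there, as did 47.3% of the 689 genes tested. Of the 120 values of the checkpoint genes, 10 were under 10 counts, and 2, both of Ido1, were at or below the median count of the 30 lowest genes in the same tumor. None of the 10 genes was at the floor of the table. Each passed the filter on low values (at least 20 normalized counts in at least 3 tumors), as did 689 of the 750 genes.

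Most checkpoint genes had higher mean levels in treated than in vehicle tumors at the deposited scaling, but no difference passed the test, and the number of higher genes depended on the scaling and on olaparib tumor 1517. With limma on log2(normalized count + 1) and Benjamini-Hochberg adjustment over 689 genes, 0 of 10 checkpoint genes passed an adjusted p of 0.05 in ADU-S100, olaparib or combination tumors against vehicle, and the share of all genes that passed was 0.0% in each comparison. At an unadjusted p under 0.05, 0 checkpoint genes passed with ADU-S100 (4.79% of all genes), 2 passed with olaparib (7.26%) and 0 passed with the combination (7.69%). By edgeR on the recovered counts, no checkpoint gene passed the adjusted threshold either. The mean was above vehicle for 9 of 10 genes, all but Cd276, in each of the 3 comparisons, which share the vehicle tumors, and 78.2%, 74.6% and 65.3% of all genes were also higher with ADU-S100, olaparib and the combination. The median log2 fold change of the 10 genes was 0.98 with ADU-S100, 0.87 with olaparib and 0.68 with the combination, beside 0.44, 0.45 and 0.21 over all genes tested. Without olaparib tumor 1517, 6 of 10 genes were higher with olaparib and the median was 0.13. With the log2 scaling factor as a covariate, 5 of 10 were higher with ADU-S100 (median -0.00577), 4 of 10 with olaparib (median -0.12) and 9 of 10 with the combination (median 0.76). With quantile normalization, 6, 7 and 6 of 10 were higher with ADU-S100, olaparib and the combination, with medians of 0.23, 0.46 and 0.24.

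**Figure D1:**
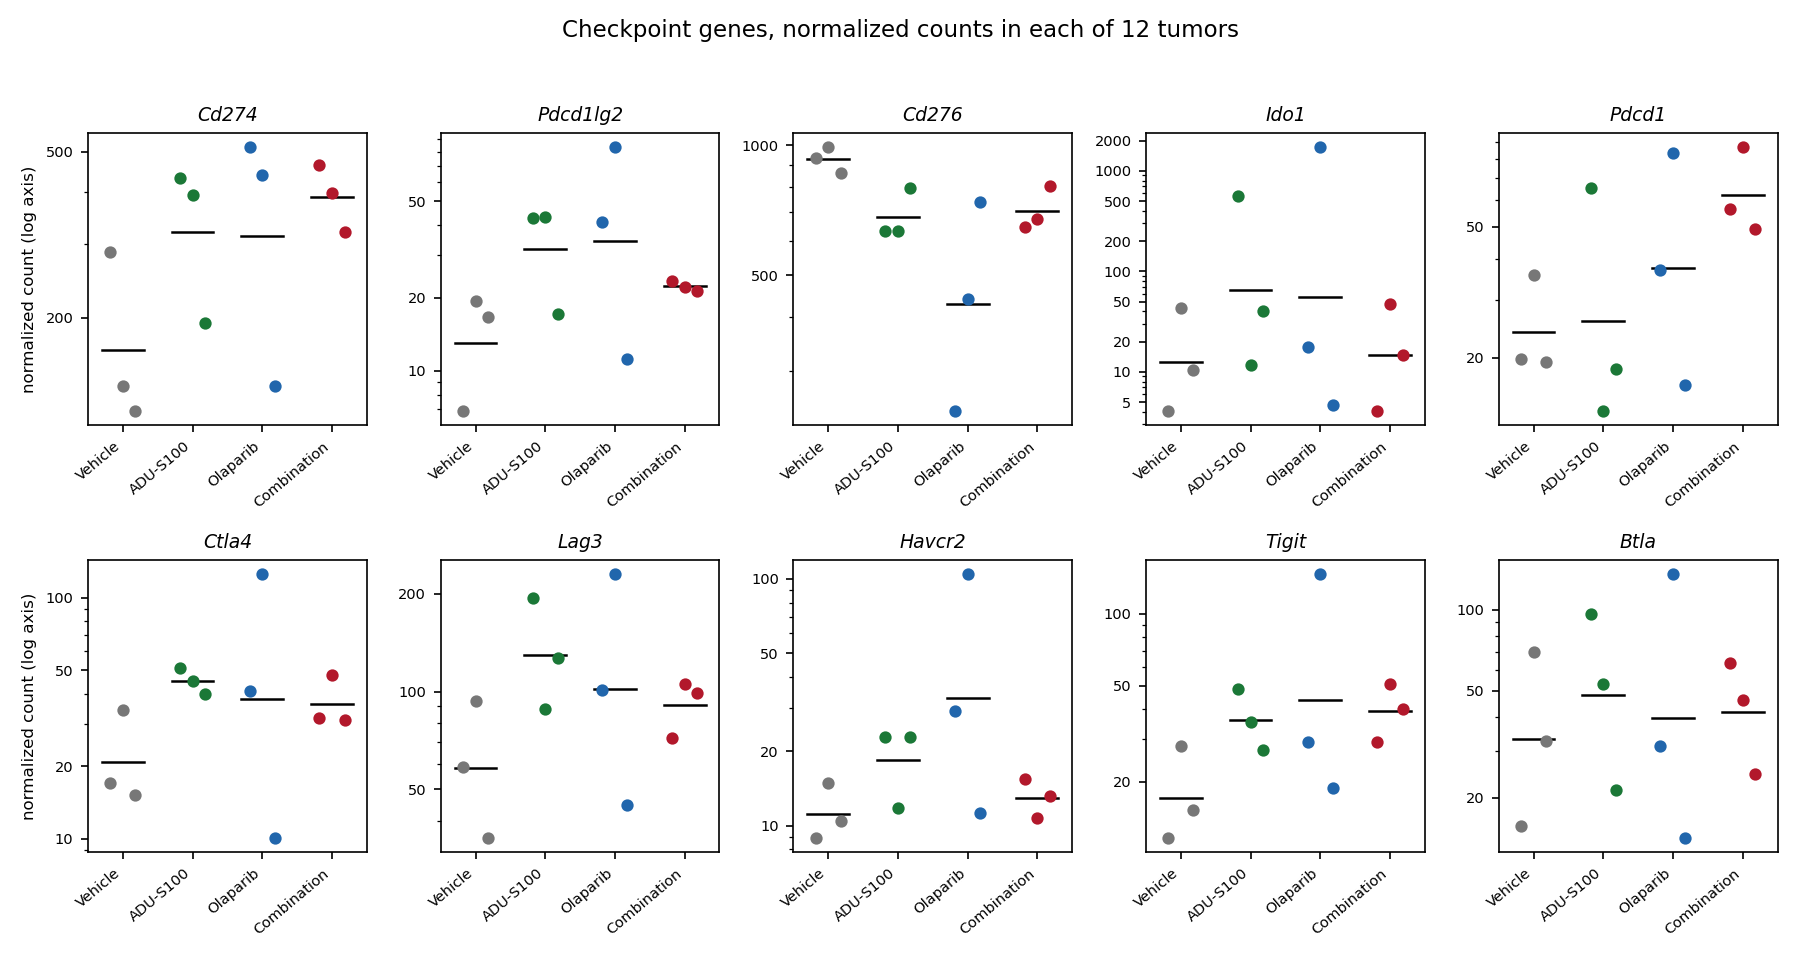
Normalized counts of the 10 checkpoint genes in each tumor (log axis, scaled separately for each gene), with 3 points a group and a line at the mean of log2(normalized count + 1) turned back to the linear scale. All 9 treated tumors lie below the 3 vehicle tumors for Cd276, and the highest point of 7 genes is olaparib tumor 1517.

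Cd274 and Pdcd1lg2 are neighbouring genes on chromosome 19 and their promoter windows are shown because both are interferon-inducible ligands of the same receptor. Each window holds the 250 bases before the start in RefSeq (GRCm38.p6, plus strand), at chr19:29367188-29367437 for Cd274 and chr19:29410669-29410918 for Pdcd1lg2, and capitals mark the letters GAAA, the core of interferon response elements, or its reverse complement TTTC.
Cd274: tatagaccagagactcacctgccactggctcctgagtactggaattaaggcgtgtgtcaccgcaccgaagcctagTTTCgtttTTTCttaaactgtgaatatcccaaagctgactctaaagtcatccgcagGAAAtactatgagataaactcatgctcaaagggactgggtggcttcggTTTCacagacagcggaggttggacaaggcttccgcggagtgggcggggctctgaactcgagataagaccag
Pdcd1lg2: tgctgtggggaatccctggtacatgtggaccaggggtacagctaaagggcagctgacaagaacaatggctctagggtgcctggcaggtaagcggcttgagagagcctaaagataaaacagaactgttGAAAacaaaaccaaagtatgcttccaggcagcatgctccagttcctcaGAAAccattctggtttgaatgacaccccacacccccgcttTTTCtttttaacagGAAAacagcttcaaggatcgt
Both windows held such a core 4 times, as single cores that also occur in 86.4% of all 32851 promoter windows. The full interferon-stimulated response element, searched on both strands as GAAA, any 2 bases and GAAA again, occurred in 2.98% of all windows, and the gamma-activated site, searched as TTC, any 3 bases and GAA, in 7.02%. Neither was in the windows of the 8 checkpoint genes that had one. That says only that these letters are not in these 250 bases.

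Cd274 had 287, 137 and 119 normalized counts in the vehicle tumors, 433, 393 and 194 with ADU-S100, 514, 440 and 137 with olaparib, and 464, 399 and 321 with the combination. Every combination tumor was above every vehicle tumor, while the single treatments each had a tumor among the vehicle values. This separation was lost with median scaling and with quantile normalization. The log2 fold change of the combination against vehicle was 1.22 (SE 0.57, limma adjusted p = 0.652), a 2.33-fold higher mean. With ADU-S100 it was 0.93 (SE 0.57) and with olaparib 0.91 (SE 0.57), and the combination differed from these by 0.28 and 0.31, each with an SE of 0.57. The olaparib value was 0.55 without tumor 1510 and 1.5 without tumor 1521. The recovered counts were 42 to 573. The 42 of olaparib tumor 1517 gave an exact Poisson 95% interval of 317 to 595 normalized counts, wider than the spread of the combination tumors.

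Pdcd1lg2 had 6.82, 19.3 and 16.6 normalized counts with vehicle, 42.7, 43.2 and 17.1 with ADU-S100, 40.9, 83.8 and 11.2 with olaparib, and 23.5, 22.3 and 21.3 with the combination. The combination tumors lay close together and just above the highest vehicle tumor, and the single treatments reached higher values and overlapped vehicle. The separation of the combination held after background subtraction but not under the 3 other scalings tried (median, quantile, and counts divided by the tumor's total). Against vehicle the log2 fold change was 1.21 (SE 0.67) with ADU-S100, 1.32 (SE 0.67) with olaparib and 0.73 (SE 0.67) with the combination (limma adjusted p = 0.809, 0.582 and 0.949). These values rest on 8 to 29 recovered counts per tumor. Without tumor 1269 the ADU-S100 and combination values were 0.79 and 0.30. The olaparib value was 0.68 without tumor 1517 and 2.08 without tumor 1521 (limma adjusted p = 0.0487), and in the latter case the exact permutation p over the 4 groups went from 0.312 to 0.0285. Without tumor 1521, 55 of all 689 genes passed the adjusted threshold with olaparib.

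Cd276, the B7-H3 gene, was the exception in direction. It had 934, 993 and 863 normalized counts with vehicle, 632, 635 and 795 with ADU-S100, 242, 440 and 739 with olaparib, and 646, 675 and 804 with the combination. At the deposited scaling, all 9 treated tumors were below all 3 vehicle tumors, a separation that 1 of the 689 genes showed (0.145%). At the same scaling, 9 genes (1.31%) had all treated tumors above. The log2 fold change of Cd276 was -0.44 with ADU-S100, -1.11 with olaparib and -0.40 with the combination, each with an SE of 0.42 (limma adjusted p = 0.809, 0.577 and 0.962). The unadjusted limma p with olaparib was 0.0211. An exact permutation test over all 15400 splits of the 12 tumors into 4 groups gave p = 0.0598. Without olaparib tumor 1521, that p was 0.000519 and the log2 fold change with olaparib was -1.51 (limma adjusted p = 0.0424). In that limma fit 55 of all 689 genes passed with olaparib. Without olaparib tumor 1510 the log2 fold change of Cd276 with olaparib was -0.70.

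The separation of Cd276 held with recovered counts divided by the tumor's total and after background subtraction, although with the former the highest treated tumor (olaparib 1521) and the lowest vehicle tumor (1269) had the same share of counts within counting error. It did not hold with the tumors scaled to a common median, where 6 of 9 treated tumors were below all vehicle tumors, or with quantile normalization (7 of 9). With these 2 scalings, 4 and 3 other genes had all treated tumors below all vehicle tumors. Of the 10 stroma markers, none of which passed the adjusted threshold, 0 had a higher mean with the combination and 1 of 10 with olaparib, against 4 of 10 with ADU-S100. The summed level of the stroma markers was 19122 to 99688 with vehicle, 38037 to 65540 with ADU-S100, 7511 to 47514 with olaparib and 16471 to 31216 with the combination, and none of the 10 was at the floor in any tumor. Of 4 epithelial markers, 3 had a higher mean with the combination, 2 with olaparib and 3 with ADU-S100. The part of either list in the result was not tested. Col3a1, a fibrillar collagen, and Psmb7, a proteasome subunit, were among the genes most like Cd276 over the 12 tumors (Pearson's r = 0.88 and 0.86).

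Ido1 varied widely between tumors of one group. It had 4.09, 43.1 and 10.4 normalized counts with vehicle, 564, 11.8 and 39.9 with ADU-S100, 17.5, 1740 and 4.71 with olaparib, and 4.05, 47.8 and 14.8 with the combination. One ADU-S100 tumor (1506) and one olaparib tumor (1517) stood far above the other 10, which overlapped across all groups. The range was 429-fold, rank 5 of 750 genes. The high values rested on 198 and 166 recovered counts and the others on 5 to 58. Fitted log2 fold changes were 2.28 with ADU-S100, 2.06 with olaparib and 0.20 with the combination, each with an SE of 1.97, and the value with ADU-S100 was 0.74 without tumor 1506 and that with olaparib -0.41 without tumor 1517.

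The genes most like Ido1 over the 12 tumors on log2 values were Cxcl15, Klrc2 and Mme (r = 0.97, 0.95 and 0.95), and without tumors 1506 and 1517 the values were 0.85, 0.85 and 0.87. Cxcl15, a chemokine, had 629 normalized counts in tumor 1506 and 3238 in tumor 1517. The points of these and the other correlations share the tumor's scaling factor.

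**Figure D2:**
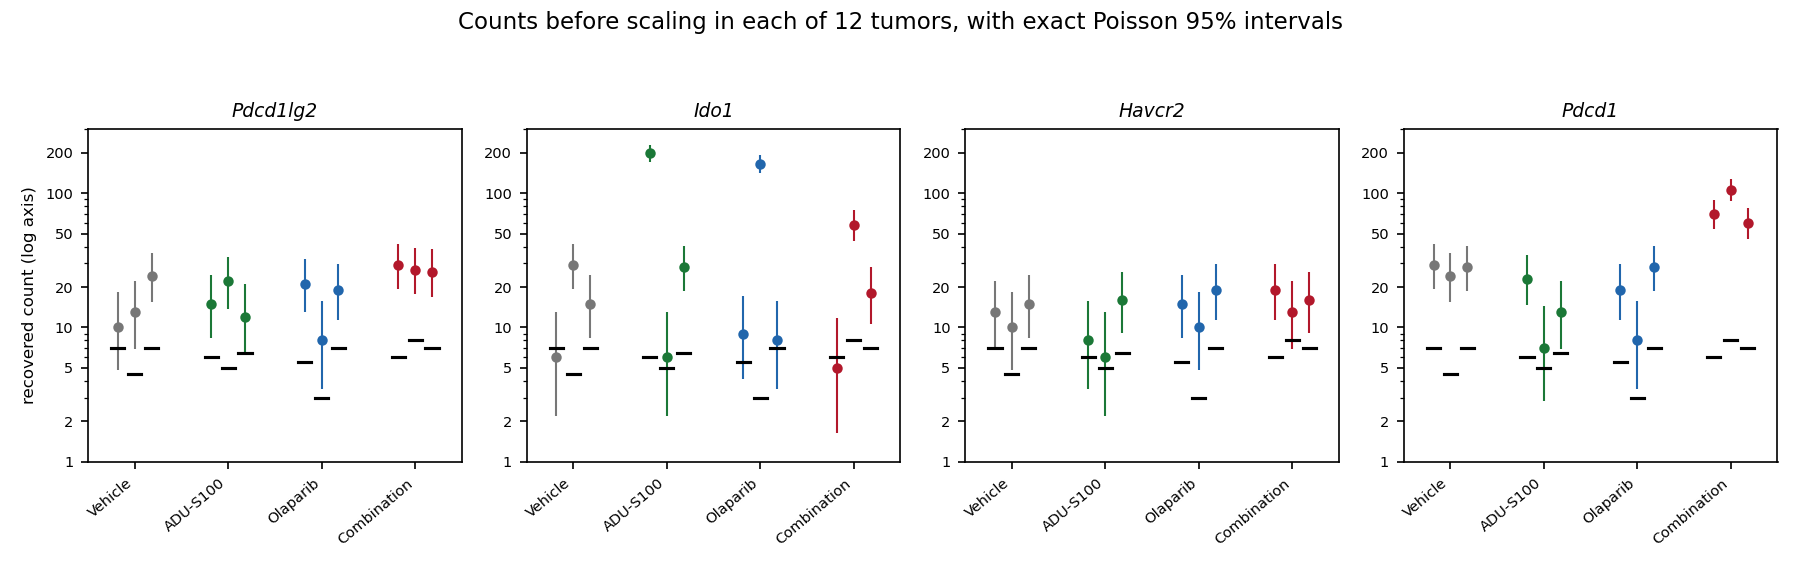
Counts before scaling (log axis) of 4 low checkpoint genes in each tumor with exact Poisson 95% intervals, and a short line at the tumor's background (the median count of the 30 lowest genes). The intervals cover counting error only. Havcr2 lies between 6 and 19 counts in every tumor, while Pdcd1 reaches 60 to 106 counts in the combination tumors.

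Among the receptors, Pdcd1 had 19.8, 35.7 and 19.4 normalized counts with vehicle, 65.5, 13.8 and 18.5 with ADU-S100, 37.0, 83.8 and 16.5 with olaparib, and 56.7, 87.4 and 49.2 with the combination. All combination tumors were above all vehicle tumors, while the single treatments had tumors on both sides of the vehicle range, with 1 above and 2 below it for ADU-S100 and 2 above and 1 below it for olaparib. The log2 fold change of the combination against vehicle was 1.35 (SE 0.67, limma adjusted p = 0.652), a 2.54-fold higher mean. Against ADU-S100 it was 1.25 (SE 0.67, limma adjusted p = 0.545) and against olaparib 0.73 (SE 0.67). The value against olaparib was 0.16 without olaparib tumor 1521. With ADU-S100 alone the difference from vehicle was 0.10, and it was -0.56 without tumor 1506. The olaparib value of 0.62 was 0.05 without tumor 1517 and 1.19 without tumor 1521. Pdcd1 was the receptor whose separation from vehicle in the combination held under each of the 4 other scalings tried.

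Tigit had 11.6, 28.2 and 15.2 normalized counts with vehicle, 48.4, 35.4 and 27.1 with ADU-S100, 29.2, 147 and 18.9 with olaparib, and 29.2, 51.1 and 40.2 with the combination. The combination tumors were above vehicle, the lowest by about 1 normalized count, and the single treatments overlapped vehicle. On the log2 scale the fold change was 1.03 with ADU-S100, 1.30 with olaparib and 1.15 with the combination, each with an SE of 0.67 (limma adjusted p = 0.809, 0.582 and 0.705). The olaparib value was 0.43 without tumor 1517. The separation of the combination was lost when recovered counts were divided by the tumor's total, and with median scaling the ADU-S100 and olaparib tumors were also all above vehicle.

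Ctla4 had 17.1, 34.2 and 15.2 normalized counts with vehicle, 51.3, 45.2 and 39.9 with ADU-S100, 40.9, 126 and 10.02 with olaparib, and 31.6, 47.8 and 31.2 with the combination. The ADU-S100 tumors were all above vehicle, while the other treated groups overlapped it. The ADU-S100 separation was lost with quantile normalization, and with median scaling the combination separated as well. Ctla4 differed from vehicle on the log2 scale by 1.09 with ADU-S100, 0.83 with olaparib and 0.77 with the combination, each with an SE of 0.72 (limma adjusted p = 0.809, 0.670 and 0.949). The value with olaparib was -0.02 without tumor 1517. Without tumor 1521 the exact permutation p over the 4 groups was 0.0307, beside 0.576 with all tumors.

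Lag3 had 58.7, 93.7 and 35.3 normalized counts with vehicle, 194, 88.4 and 127 with ADU-S100, 101, 231 and 44.8 with olaparib, and 72.1, 106 and 99.2 with the combination. Each treated group overlapped vehicle, except that ADU-S100 was above it with median scaling and with counts divided by the tumor's total. Lag3 differed from vehicle on the log2 scale by 1.15 with ADU-S100, 0.80 with olaparib and 0.64 with the combination, each with an SE of 0.59 (limma adjusted p = 0.809, 0.623 and 0.949). The olaparib value was 0.21 without tumor 1517 and 1.38 without tumor 1521, and the combination value was 0.29 without vehicle tumor 1536 and 0.98 without vehicle tumor 1529.

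Havcr2, the TIM-3 gene, was the receptor with the fewest counts. It had 8.87, 14.9 and 10.4 normalized counts with vehicle, 22.8, 11.8 and 22.8 with ADU-S100, 29.2, 105 and 11.2 with olaparib, and 15.4, 10.7 and 13.1 with the combination. Each treated group overlapped vehicle, and the 105 of olaparib tumor 1517 was 10 recovered counts. With median scaling and with quantile normalization, all olaparib tumors were above vehicle. Recovered counts spanned 3.17-fold over the 12 tumors, from 6 to 19, while normalized counts spanned 11.8-fold. The log2 fold change with olaparib was 1.48 (SE 0.66, unadjusted p = 0.0444 and adjusted p = 0.582 by limma) and with the combination 0.20 (SE 0.66). The interaction, which compares what ADU-S100 adds on top of olaparib with what it adds to vehicle, was -1.96 (SE 0.93, limma adjusted p = 0.439). The olaparib difference was 0.66 without tumor 1517. Without olaparib tumor 1521 it was 2.22 (limma adjusted p = 0.0436), the interaction -2.69 (0.0394) and the exact permutation p over the 4 groups 0.00312, beside 0.157 with all tumors. In that fit, which kept olaparib tumors 1510 and 1517, 55 of all 689 genes passed with olaparib and 86 in the interaction.

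Btla had 15.7, 69.9 and 32.6 normalized counts with vehicle, 96.8, 53.0 and 21.4 with ADU-S100, 31.2, 136 and 14.1 with olaparib, and 63.2, 46.2 and 24.6 with the combination. The 4 groups overlapped throughout. The log2 fold change was 0.53, 0.25 and 0.32 with ADU-S100, olaparib and the combination, each with an SE of 0.84 to 0.85. With single tumors left out they ranged from 0.01 to 1.09, from -0.63 to 0.96 and from -0.19 to 0.85.

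Counted over the 10 genes, tumors did not overlap with vehicle for 2 genes with ADU-S100 (Ctla4 higher, Cd276 lower), beside 14.9% of all genes (13.9% higher and 1.02% lower). With olaparib it was 1 gene (Cd276), beside 4.79% (3.77% higher and 1.02% lower). With the combination it was 5 genes (Cd274, Pdcd1lg2, Pdcd1 and Tigit higher, Cd276 lower), beside 20% (18.4% higher and 1.6% lower). At the deposited scaling the combination did not separate from ADU-S100 or from olaparib for any of the 10 genes, beside 31.3% (10.4% higher and 20.9% lower) and 12.8% (11% higher and 1.74% lower) of all genes. Mean levels in the combination were above ADU-S100 for 4 of the 10 genes, beside 40.3% of all genes, and above olaparib for 4, beside 41.4%. No checkpoint gene had an unadjusted limma p under 0.05 in these comparisons (9.14% and 7.26% of all genes), in the interaction (10.9%) or over the 4 groups (7.55%). Other scalings gave separations. Pdcd1 in the combination was above both single treatments with median scaling and quantile normalization. Havcr2 in the combination was below olaparib with median scaling, quantile normalization and counts divided by the tumor's total, and with the last of these Lag3 and Havcr2 were below ADU-S100. The shares over all genes are those of the deposited scaling, so separations under other scalings are given without such a share and draw no conclusion.

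**Figure D3:**
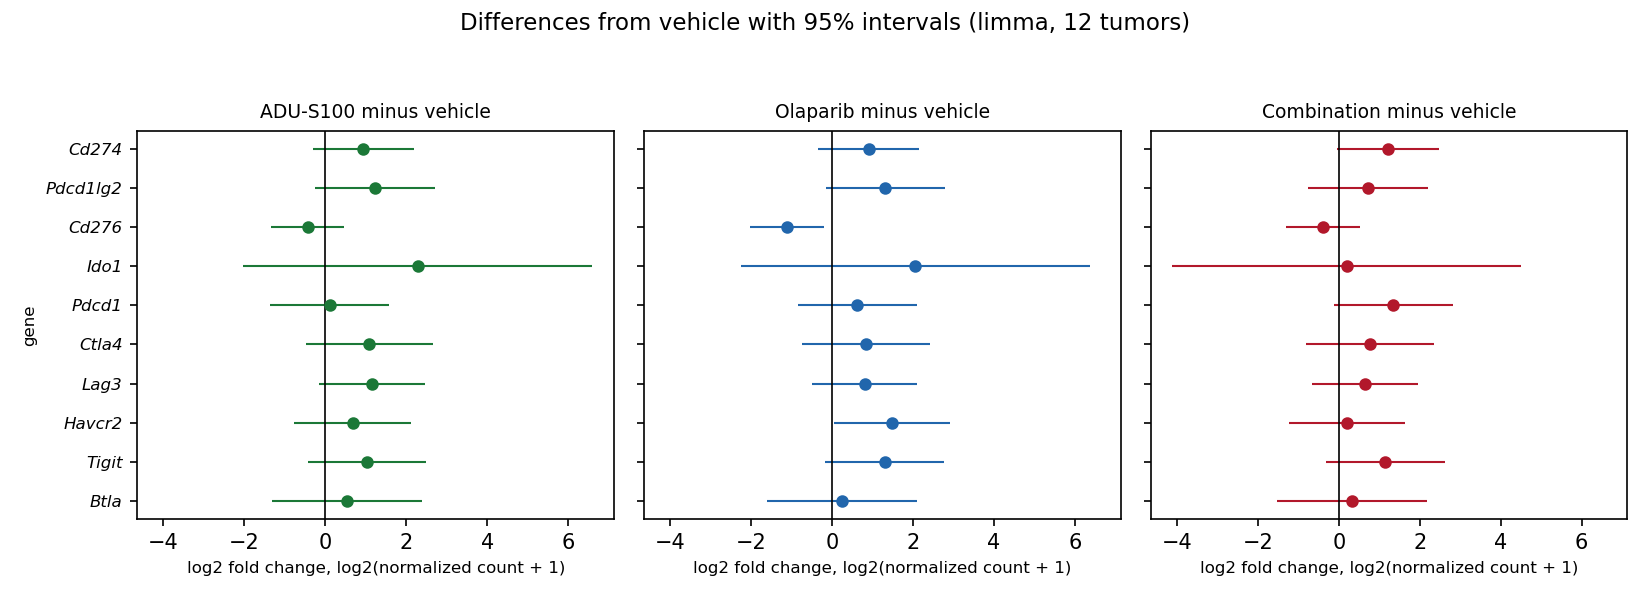
Log2 fold change against vehicle of each checkpoint gene with its 95% interval from limma, for ADU-S100, olaparib and the combination (x axis, log2(normalized count + 1) scale). Most intervals include 0, those of Cd276 and Havcr2 with olaparib do not, and the interval of Ido1 is the widest.

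Most T cell markers also had higher means in treated tumors. The median log2 fold change of the 6 receptors was 0.85 with ADU-S100, 0.82 with olaparib and 0.71 with the combination, and whether the receptors differed from the T cell markers was not tested. All 11 of the 11 markers kept by the filter (13 measured) had higher means with the combination than with vehicle, 9 with olaparib and 10 with ADU-S100. The medians on the log2 scale were 1.33, 0.70 and 0.57, and 0 passed the adjusted threshold. Their summed level was 228 to 434 normalized counts with vehicle, 341 to 906 with ADU-S100, 277 to 1037 with olaparib and 552 to 848 with the combination, and none was at the floor. Cd3g, a chain of the T cell receptor complex, and Cd4 differed from vehicle by 1.64 (SE 0.49) and 1.75 (SE 0.52) with the combination (limma adjusted p = 0.278 for each). Most NK and B cell markers kept by the filter also had higher means, beside 78.2%, 74.6% and 65.3% of all genes with ADU-S100, olaparib and the combination. Of 5 NK cell markers kept by the filter (6 measured), 5 were higher with ADU-S100, 5 with olaparib and 4 with the combination, with medians of 1.47, 1.43 and 0.87, and the summed level was 80.5 to 147 with vehicle, 164 to 641 with ADU-S100, 85.4 to 765 with olaparib and 196 to 299 with the combination. Both of the 2 B cell markers kept (8 measured) were higher in each comparison, with medians of 1.02, 1.35 and 0.60, and the summed level was 46.4 to 113, 97.0 to 234, 47.1 to 440 and 89.1 to 147 in the same order of groups. None of these markers was at the floor, 0 passed the adjusted threshold, and their part in the receptors' levels was not tested.

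The 3 genes most like each receptor over the 12 tumors came from several cell types. For Pdcd1 they were Cd3e, the chemokine receptor Ccr6 and Cd3g (each r = 0.90), and for Ctla4 Cd3d (0.96), Amica1 (0.94) and the B cell gene Ms4a1 (0.94). For Lag3 they were Il21 (0.92), the costimulatory receptor Cd28 (0.91) and perforin, Prf1 (0.91), and for Tigit the cytotoxic protease Gzmb (0.94), Ms4a1 (0.93) and the NK receptor gene Klrd1 (0.93). For Btla they were Cd37 (0.95), Foxp3 (0.93) and Lyn (0.92), and for Havcr2 Bcl2l1 (0.97), Sbno2 (0.95) and Irf3 (0.94), the last of which was 0.76 without tumor 1517.

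Taken relative to the mean log2 level of the 13 T cell markers in the same tumor, Pdcd1 was 0.55 ± 0.17 (SD, n = 3) with vehicle, -0.15 ± 0.53 with ADU-S100, 0.36 ± 0.08 with olaparib and 0.70 ± 0.07 with the combination. The ADU-S100 and olaparib tumors were all below the vehicle tumors on this measure, and the combination overlapped vehicle. The olaparib margin was small, with its highest tumor at 0.444 and the lowest vehicle tumor at 0.448. Pdcd1 rested on 8 recovered counts in olaparib tumor 1517 and on 7 in ADU-S100 tumor 1512. Ctla4 was 0.35 ± 0.09, 0.64 ± 0.55, 0.38 ± 0.67 and -0.07 ± 0.05 in the same order of groups, and Havcr2 was -0.49 ± 0.35, -0.62 ± 0.71, 0.18 ± 0.50 and -1.48 ± 0.61. For both, the combination tumors were all below the vehicle tumors and the single treatments overlapped vehicle. Tigit was 0.09 ± 0.34, 0.31 ± 0.35, 0.58 ± 0.65 and 0.04 ± 0.27, Lag3 1.79 ± 0.20, 2.14 ± 0.42, 1.78 ± 0.10 and 1.24 ± 0.33, and Btla 0.998 ± 0.75, 0.72 ± 0.55, 0.44 ± 0.60 and 0.13 ± 0.68, and each treated group overlapped vehicle for these 3 genes. Of the 678 genes tested that are not T cell markers, 9.59% were without overlap and lower than vehicle on this measure with ADU-S100, 2.8% with olaparib and 45.9% with the combination, and 3.1%, 2.06% and 1.33% were without overlap and higher. These are descriptions with no test.

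**Figure D4:**
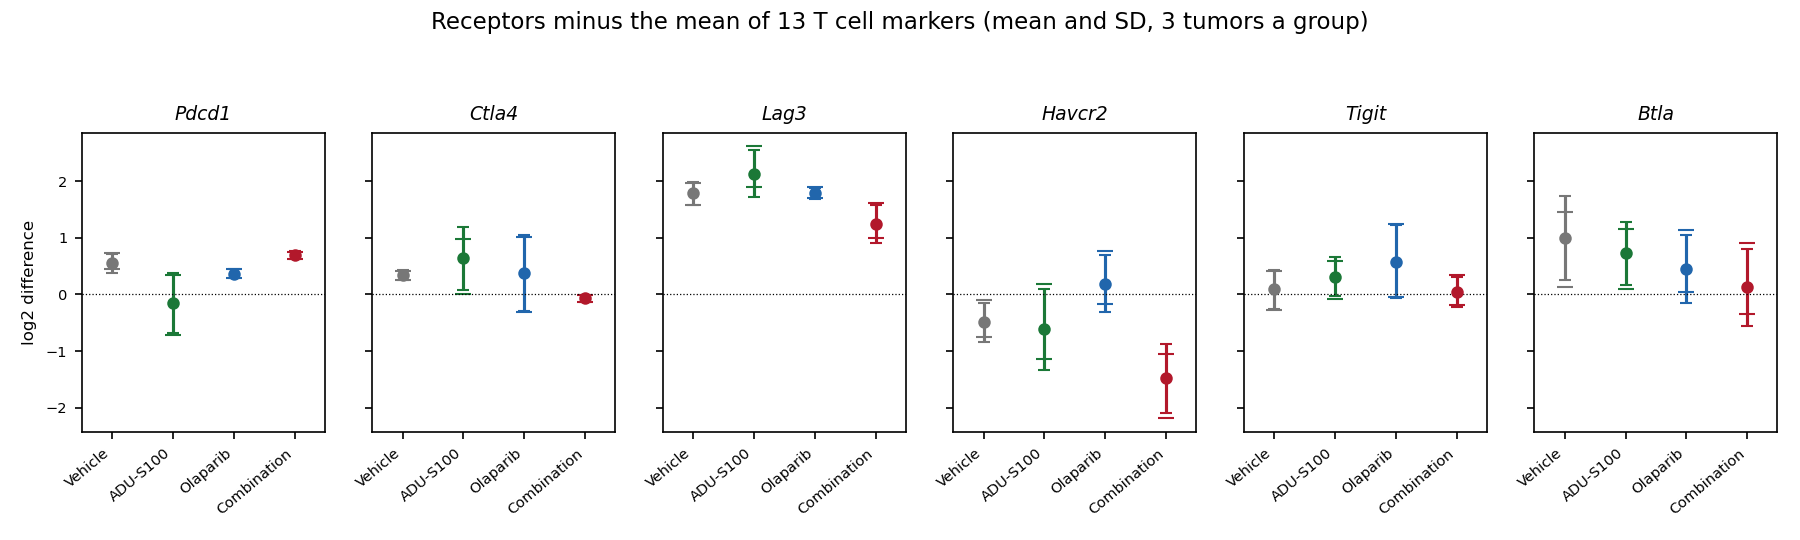
Log2 level of each receptor minus the mean log2 level of 13 T cell markers in the same tumor, as group mean and SD over 3 tumors, with dashes at the lowest and highest tumor. In the combination Ctla4 and Havcr2 lie below their vehicle tumors, and Pdcd1 and Tigit overlap them. Pdcd1 lies below vehicle with ADU-S100 and, by a small margin (0.444 against 0.448), with olaparib.

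For the ligands, Pdcd1lg2 relative to the 8 macrophage markers was -4.92 ± 0.15 with vehicle, -3.97 ± 0.52 with ADU-S100, -3.34 ± 1.13 with olaparib and -4.0 ± 0.16 with the combination, and each treated group was above vehicle without overlap. Of 681 genes tested that are not macrophage markers, 10.7%, 6.75% and 17.2% were without overlap and higher on this measure with ADU-S100, olaparib and the combination, and 1.76%, 0.881% and 0.881% were without overlap and lower. Relative to the same markers, Cd274 was -1.34 ± 1.46 with vehicle, -0.67 ± 0.39 with ADU-S100, -0.17 ± 1.07 with olaparib and 0.07 ± 0.20 with the combination. Each treated group overlapped vehicle for Cd274. Cd276 relative to the 4 epithelial markers was -1.80 ± 0.47 with vehicle, -2.29 ± 0.22 with ADU-S100, -3.27 ± 1.16 with olaparib and -2.58 ± 0.35 with the combination. Here too each treated group overlapped vehicle. The macrophage markers had higher means for 3 of 8 genes with the combination, 2 with olaparib and 6 with ADU-S100. Their summed level was 3712 to 6977 with vehicle and 4982 to 6772 with the combination, and none was at the floor.

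The other genes of these pathways gave the same absence of calls. Of 14 measured partners and ligands of the receptors, 13 were higher with the combination, 11 with olaparib and 9 with ADU-S100, and 0 passed the adjusted threshold. Over all genes tested, 65.3%, 74.6% and 78.2% were higher in the same order. H2-Aa, an MHC class II chain and so part of the ligand of LAG-3, was at 14123 to 18905 normalized counts with the combination, above the 3474 to 6164 with vehicle, with a log2 fold change of 1.78 (SE 0.46, limma adjusted p = 0.278). It was at 1770 to 4683 with ADU-S100 and 3385 to 5796 with olaparib, with log2 fold changes against vehicle of -0.92 and -0.08 (SE 0.46 for each, limma adjusted p = 0.809 and 0.959). Cd160, a receptor for HVEM like BTLA, differed by 2.08 with ADU-S100, 2.15 with olaparib and 1.62 with the combination, each with an SE of 0.67 (limma adjusted p = 0.809, 0.577 and 0.504). These values rest on as few as 3 recovered counts, which is not above the background of any tumor.

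Of 10 genes of the interferon-gamma axis kept by the filter, 10 were higher with the combination, 8 with olaparib and 7 with ADU-S100, with medians of 1.02, 0.34 and 0.14, and 0 passed. Over all genes tested, 65.3%, 74.6% and 78.2% were higher in the same order, with medians of 0.21, 0.45 and 0.44. Cxcl9, an interferon-induced chemokine that draws T cells, was at 26 to 82 with vehicle and 244 to 713 with the combination, with a log2 fold change of 3.13 (SE 0.84, limma adjusted p = 0.278). Oasl1, an interferon-stimulated gene, and H2-T23, a non-classical MHC class I gene, were with Fpr2 the genes most like Cd274 over the 12 tumors (r = 0.84, 0.84 and 0.87). Of 8 suppressive enzymes and cytokines, 5 were higher with the combination, 7 with olaparib and 8 with ADU-S100, and 0 passed.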

How the data were processed

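RNA from 12 tumors was measured on an nCounter mouse immune panel. The deposited signal is linear, namely normalized counts that the authors corrected for background and scaled to positive controls and housekeeping genes in nSolver. Low values are whole multiples of one step per tumor (within 0.02 of a count for 99.9% of values in the tumor with the lowest share), and dividing by it gave the recovered counts. The floor of 1 was set to 0 counts. The table used here holds no control genes, so the scaling could not be repeated.

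Log2(normalized count + 1) was fitted with limma 3.58.1 in R 4.3.3 with one mean per group over 12 tumors, and p-values were adjusted by Benjamini-Hochberg over 689 genes. The alternative count test was edgeR 4.0.16. Single genes were also tested with an exact permutation test of F, which counts the splits with an F at least as large as the observed one. Scripts were tested on simulated data. The labels do not say whether tumors came from separate donor tumors, so p-values measure the spread between these samples.

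The 10 genes, the gene lists and the tests were chosen with earlier results of these data known. Named genes were the 10, up to 4 per list with the smallest limma F p-value, and the 3 most correlated with each member. Promoters came from RefSeq (GRCm38.p6), with windows for 8 of the 10. A few genes that this rule names are not reported here.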

Additional observations from a re-analysis of the deposited data

How the results depend on the processing

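The 30 log2 fold changes against vehicle were recomputed under 14 other settings and with each tumor left out, and 18 kept their sign wherever they were computed (a filter at 50 kept 5 of the 10 genes, so the others were not tested there), among them all 3 of Cd274, Pdcd1lg2, Cd276 and Tigit. No setting other than leaving out olaparib tumor 1521 brought a checkpoint gene past the adjusted threshold. With each tumor left out in turn, checkpoint genes called ranged from 0 to 3 with olaparib and from 0 to 1 in the interaction. All genes called ranged from 0 to 55 with olaparib, 0 to 1 for the combination against ADU-S100, 0 to 54 against olaparib, 0 to 86 in the interaction and 0 to 6 over the 4 groups. Each upper value but the 1, which came without ADU-S100 tumor 1506, came without tumor 1521. Over the same omissions, the exact permutation p ranged from 0.0285 to 0.652 for Pdcd1lg2, 0.000519 to 0.103 for Cd276, 0.0307 to 0.802 for Ctla4 and 0.00312 to 0.354 for Havcr2.

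Combination against vehicle gave 2 genes in a fit of those 2 groups, 3 by the methods' t-test and 4 with the log2 scaling factor as a covariate, and combination against ADU-S100 gave 1 gene with a pseudocount of 10, a filter at 50, median scaling, quantile normalization or an intensity trend, and 2 without tumors 1506 and 1517 (chosen after seeing the data, as were the other scalings for separation).

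Signs turned as follows. With the factor as a covariate, the ADU-S100 values were -0.23 for Ido1, -0.63 for Pdcd1, -0.14 for Havcr2 and -0.52 for Btla, and the olaparib values -0.89 for Ido1, -0.23 for Pdcd1, -0.29 for Ctla4, -0.00816 for Lag3 and -0.97 for Btla. With quantile normalization they were -0.79 for Pdcd1, -0.39 for Havcr2 and -0.26 for Btla with ADU-S100, -0.12 for Pdcd1 and -0.34 for Btla with olaparib, and -0.0798 for Ido1, -0.0892 for Havcr2 and -0.18 for Btla with the combination. With median scaling they were -0.31 for Pdcd1 with ADU-S100, -0.10 for Btla with olaparib, and -0.00475 for Ido1 and -0.00401 for Havcr2 with the combination. With edgeR and TMM they were -0.26 for Pdcd1 with ADU-S100, -0.30 for Btla with olaparib, and -0.12 for Havcr2 and -0.0302 for Btla with the combination. With background subtraction they were -0.53 for Pdcd1 and -0.0271 for Havcr2 with ADU-S100. Without tumors 1506 and 1517 they were -0.56 for Pdcd1 with ADU-S100, and -0.41 for Ido1, -0.0187 for Ctla4 and -0.63 for Btla with olaparib. Leaving out single tumors gave ranges of -0.56 to 0.53 for Pdcd1 with ADU-S100, -0.41 to 3.71 for Ido1, -0.0187 to 1.74 for Ctla4 and -0.63 to 0.96 for Btla with olaparib, and -0.62 to 1.05 for Ido1 and -0.19 to 0.85 for Btla with the combination. Ctla4 relative to the CD3 chains alone gave a combination minus vehicle difference of -0.54. The cause was not tested. No paired analysis was possible because the tumor numbers are not shared between groups.

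With 3 tumors a group and scaling factors that differed by 17.8-fold, counting error is wide for the low genes. Havcr2 in olaparib tumor 1517, at 10 recovered counts, had an exact Poisson 95% interval of 4.8 to 18.4 counts. The tumor number series (12 or 15, of unstated meaning) as a block turned no sign and gave no call. Only combination tumors 1251 and 1270 and vehicle tumor 1269 were of series 12, so series and treatment were partly confounded. With the block, genes with an unadjusted limma p under 0.05 went from 63 to 11 for the combination against ADU-S100. For olaparib against vehicle they went from 50 to 48.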
